A study of Arabidopsis thaliana with 2 samples.

Results

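The 10 genes described here form the core of the circadian clock of Arabidopsis thaliana, and they were taken by their locus codes: CCA1, LHY, PRR9, PRR7, PRR5, TOC1, GI, ELF3, ELF4 and LUX. They are 10 of 26375 genes with a probe on the arrays. For 9 of the 10, a probe carried the deposited flag P on both arrays (a letter beside each spot, whose meaning was inferred from the values: spots flagged A were dim), and these 9 stand among 16956 genes tested. LHY had no such probe and is given by its intensities alone. The study set leaves of a transgenic line, 35S:NROB #2, against leaves of wild-type Columbia-0. The name 35S usually stands for a viral promoter active in most plant cells, and the sources used here do not say what NROB stands for or whether #2 is 1 of several lines. All plants were in the Columbia-0 background, at day 30, in a greenhouse with 16 h of light at 22 °C and 8 h of dark at 20 °C. Young leaves were sampled, and the hour of harvest is not given. There were 2 arrays, called biological replicates 1 and 2, each with 1 wild-type sample (Cy5) and 1 transgenic sample (Cy3). Dyes were not swapped, so the effect of the dye and that of the genotype cannot be told apart. Whether a sample came from 1 plant or from several is not stated. The p-values rest only on the spread between these 2 arrays, a gene's own and that pooled over all genes. The number of arrays limits the precision.

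The plant clock is a ring of transcriptional repressors that act in turn through the day. CCA1 and LHY, a pair of MYB factors, peak near dawn and repress the evening genes. The pseudo-response regulators PRR9, PRR7, PRR5 and TOC1 follow one another from morning to evening and repress CCA1 and LHY. GI, a large protein of the late day, acts with blue-light F-box proteins on protein turnover and on the timing of flowering. ELF3, ELF4 and LUX form the evening complex, a night-time repressor of morning and daytime clock genes. Levels of these transcripts swing widely over the day, so a level at 1 unknown hour shows neither period nor amplitude.

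In 35S:NROB #2 leaves, no clock core gene passed a test of change. None of the 9 tested genes was called in limma, a linear model fitted across all genes (0 of 9 at an adjusted p under 0.05, where 0.248% of all genes were called), and none had a mean change over 2-fold with the same sign on both arrays (0 of 9, against 7.67% of all genes). The study's design text takes a mean change over 2-fold in its replicates as the criterion for a regulated gene, and the condition on the sign was added here. ELF4 and CCA1 stood lowest, at 0.626 and 0.639 times the wild-type level. Both had an unadjusted limma p under 0.05, which makes 2 of 9, beside 33.1% of all genes, and 2 of 9 had an adjusted p under 0.1, beside 20.1% of all genes. The limma adjusted p values of the 9 genes lay between 0.0691 and 0.945. The median log2 ratio of 35S:NROB #2 over wild type was -0.23 over the 9 genes and -0.028 over all genes. The median size of the log2 ratio, whatever its sign, was 0.23 in the core and 0.26 in all genes. For 8 of the 9 genes the 95% interval of the log2 ratio lay within -1 and 1, as it did for 78.0% of all genes. The exception was CCA1. These intervals are limma's own, are not adjusted for the number of genes, and do not cover a dye effect.

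**Figure D1:**
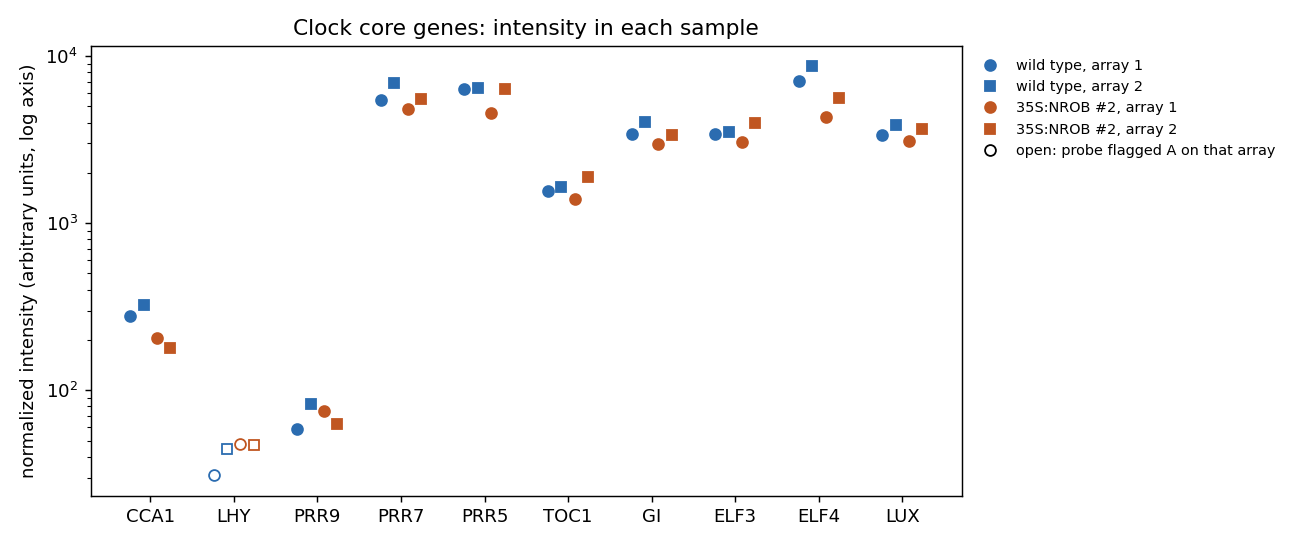
Normalized intensity (log axis) of the 10 clock core genes in the 2 wild-type samples (blue) and the 2 samples of 35S:NROB #2 (orange), circles for array 1 and squares for array 2, with open symbols where the probe was flagged A. CCA1, GI and ELF4 show no overlap between the genotypes, and the LHY probe lies at 47.6 or below in all 4 samples.

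The dawn gene CCA1 (AT2G46830) had intensities of 276.7 and 324.2 in the wild-type samples of arrays 1 and 2, and of 205.3 and 178.5 in 35S:NROB #2. Both transgenic values lay below both wild-type values. As deposited, intensities of the genotypes were free of overlap in 3 of the 9 genes (CCA1, GI and ELF4), against 53.3% of all genes. Array 2 was the brighter array, and with each channel centred on its median, a setting added after the values were seen, PRR7, PRR5 and LUX were free of overlap too, which makes 6 of 9, against 73.4% of all genes. The log2 ratio of CCA1 was -0.43 on array 1 and -0.86 on array 2, a mean of -0.65 ± 0.30 (SD, n = 2), with a 95% interval from -1.10 to -0.19 and a limma adjusted p of 0.0950. Its other 2 probes were flagged A on both arrays, with intensities of at most 37.8, and their mean log2 ratios of 0.61 and -0.34 did not share a sign. The CCA1 value therefore rests on a single probe.

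LHY (AT1G01060), the partner of CCA1, had 1 probe, flagged A on both arrays. Its intensities were 31.0 and 44.2 in wild type, against 47.6 and 47.2 in 35S:NROB #2. For comparison, the highest intensity of the dimmer channel among spots flagged A was 50.1 on array 1 and 66.0 on array 2. The spots of LHY are themselves part of the set flagged A, so their place within its range is no separate check. No fold is given.

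Among the pseudo-response regulators, PRR9 (AT2G46790), the earliest of the series, was dim too. Its intensities were 59.0 and 83.1 in wild type, against 75.2 and 62.4 in 35S:NROB #2. The genotypes overlapped and the log2 ratio changed sign, from 0.35 on array 1 to -0.41 on array 2, a mean of -0.031 ± 0.54 (limma adjusted p = 0.935). The 95% interval ran from -0.68 to 0.62, the widest of the 4 regulators.

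PRR7 (AT5G02810), which follows PRR9 in the morning, had intensities of 5482.5 and 6868.0 in wild type, against 4850.8 and 5543.6 in 35S:NROB #2. It was lower on both arrays, and the groups overlapped as deposited but not after centring, with a mean log2 ratio of -0.24 ± 0.094 (95% interval -0.58 to 0.091, limma adjusted p = 0.233). A dimmer probe of the gene gave -0.29. PRR5 (AT5G24470), of the afternoon, had intensities of 6325.5 and 6466.6 in wild type, against 4590.6 and 6346.8 in 35S:NROB #2. Its lower mean, -0.24 ± 0.31 (limma adjusted p = 0.341), came mostly from array 1, where the log2 ratio was -0.46, against -0.027 on array 2.

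TOC1 (AT5G61380), the evening member and founder of the family, had intensities of 1563.3 and 1645.8 in wild type, against 1392.2 and 1893.5 in 35S:NROB #2. The transgenic samples held both the lowest and the highest value. The log2 ratio was -0.17 on array 1 and 0.20 on array 2, with a mean of 0.018 ± 0.26, a 95% interval from -0.40 to 0.44 and a limma adjusted p of 0.944.

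GI (AT1G22770) had intensities of 3422.8 and 4035.3 in wild type, against 2975.2 and 3354.9 in 35S:NROB #2. The difference was small but alike on both arrays, -0.20 and -0.27, with a mean log2 ratio of -0.23 ± 0.045 (95% interval -0.56 to 0.088, limma adjusted p = 0.234). The other GI probe, flagged P on both arrays, gave a mean of -0.27.

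Of the evening complex, ELF4 (AT2G40080), a small protein needed for the complex to work, showed the largest mean ratio of the clock core. Its intensities were 7079.9 and 8669.7 in wild type, against 4317.4 and 5579.5 in 35S:NROB #2, with no overlap. The log2 ratio was -0.71 on array 1 and -0.64 on array 2, a mean of -0.67 ± 0.055 (95% interval -0.998 to -0.35, limma adjusted p = 0.0691). A mean of at least this size was found in 16.3% of all genes. Without the pairing of the channels within arrays, ELF4 had a limma adjusted p of 0.0388 and was called, as were 17.4% of all genes. Its other probe, matched by symbol alone, was flagged A on both arrays, at most 21.5 in intensity, and is not used.

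The partners of ELF4 did not share its ratio. ELF3 (AT2G25930), the scaffold of the complex, had intensities of 3398.7 and 3513.2 in wild type, against 3061.3 and 3991.7 in 35S:NROB #2, so that the transgenic values lay on either side of wild type. Its mean log2 ratio was 0.017 ± 0.24 (95% interval -0.39 to 0.42, limma adjusted p = 0.945). LUX (AT3G46640), the DNA-binding subunit, listed as PCL1 in the reference table, had intensities of 3353.7 and 3861.2 in wild type, against 3121.7 and 3647.4 in 35S:NROB #2. Its mean log2 ratio was -0.093 ± 0.015 (95% interval -0.41 to 0.23, limma adjusted p = 0.593), and its other 2 probes, of which 1 was matched by symbol alone, gave -0.25 and -0.040. The intervals of ELF3 and LUX overlap that of ELF4, and a difference between these genes was not tested.

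**Figure D2:**
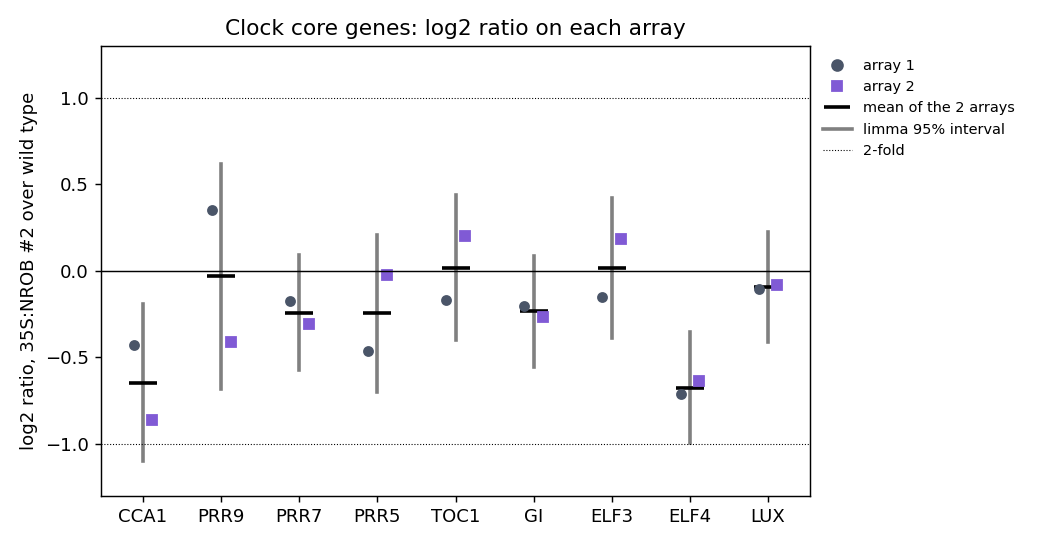
Log2 ratio of 35S:NROB #2 over wild type for the 9 tested clock core genes on array 1 (circles) and array 2 (squares), with the mean (black bar) and limma's 95% interval (grey line); dotted lines mark a 2-fold change. Only the intervals of CCA1 and ELF4 leave out 0, and PRR9, TOC1 and ELF3 change sign between the arrays.

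Across the clock core, 6 of the 9 tested genes were lower on both arrays, 3 had opposite signs (PRR9, TOC1 and ELF3) and none was higher on both. Of all genes, 43.3% were lower on both arrays. The list's median log2 ratio was -0.18 on array 1 and -0.27 on array 2. Intensities of different probes depend on the probe as well as on the transcript, so the genes are not ranked against each other by level.

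The tissue was checked with marker genes. All 9 markers of green leaf tissue, such as the small subunits of Rubisco, were flagged P on both arrays. Their summed intensity was 1241053.5 and 1344423.8 in wild type, against 1310686.3 and 1164178.3 in 35S:NROB #2. None of the markers for root (1), flower (3) and seed (2) was flagged P on both arrays, and the flower marker AG was flagged P on array 1. Of the markers of vascular tissue and of guard cells, 4 of 4 and 4 of 4 were lower on both arrays, beside 43.3% of all genes. None was called by limma (0 of 8, against 0.248% of all genes). At an unadjusted limma p under 0.05 stood 6 of 8, against 33.1% of all genes. Lower by more than 2-fold, with the same sign on both arrays, were IRX1 and IRX3 (vascular, 2 of 4) and SLAC1 (guard cells, 1 of 4). Of all genes, 7.67% passed this limit in either direction. The vascular and guard cell lists had median log2 ratios of -0.78 and -0.48. Their summed intensities were 19479.4 and 22803.0 in wild type against 16032.4 and 16657.4 in 35S:NROB #2 for vascular tissue, and 3627.0 and 4721.2 against 2675.6 and 3121.9 for guard cells. The part of these cell types in the values of CCA1 and ELF4 was not tested. In whole leaves, fewer cells of a type and less RNA per cell cannot be told apart.

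The wider clock was followed with 61 other genes in 6 lists, of which 58 were tested. None was called by limma (0 of 58), and 1 had a mean change over 2-fold with the same sign on both arrays, the cold-response factor CBF3, beside 7.67% of all genes. On array 1 alone 2 genes were past 2-fold, CBF3 and JMJ30, and on array 2 alone 5 genes, CBF3, GRP7, GRP8, CAT3 and ELF4-L3. Of all 16956 genes, 579 were past 2-fold higher and 217 lower on array 1 alone, and 1179 and 1035 on array 2 alone. At an unadjusted limma p under 0.05 stood 3 higher and 10 lower genes, 22.4% of the 58, against 33.1% of all genes. The 58 genes had a median log2 ratio of -0.056.

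Other morning MYB factors and their coactivators had a median log2 ratio of -0.032 over 8 tested genes, 4 higher and 4 lower on both arrays. RVE2 (0.56 ± 0.53) and RVE1 (0.42 ± 0.37), MYB factors related to CCA1, stood higher. RVE7 (-0.38 ± 0.17), of the same family, and LNK1 (-0.33 ± 0.051), a coactivator of the morning factors, stood lower. For these 4 genes the adjusted p of limma lay between 0.143 and 0.194. RVE2 and RVE1 were dim. RVE2 had intensities of 97.3 and 81.3 in wild type, against 111.0 and 156.0 in 35S:NROB #2. RVE1 had 76.5 and 60.7 in wild type, against 85.3 and 96.9 in 35S:NROB #2. With 50 added to each intensity, the mean log2 ratios of RVE2 and RVE1 were 0.39 and 0.25. RVE8, an activator of evening genes, had 1 probe, flagged A on both arrays, with 13.2 and 25.1 in wild type, against 26.7 and 41.8 in 35S:NROB #2.

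The paralogues of PRR, ELF4 and LUX had a median of -0.18 over 6 genes. ELF4-L1 stood at -0.67 ± 0.23 (limma adjusted p = 0.0797), close to ELF4 itself, from intensities of 202.7 and 241.7 in wild type, against 113.8 and 169.3 in 35S:NROB #2. The groups did not overlap. ELF4-L2 and ELF4-L4, which complete the list, stood at -0.19 and -0.16. ELF4-L3 stood at 0.49 ± 0.72, from -0.020 on array 1 and 1.00 on array 2. BOA, the closest relative of LUX, stood at 0.45 ± 0.27 (limma adjusted p = 0.140). PRR3, which is known to stabilise the TOC1 protein, stood at -0.25 ± 0.26.

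The 3 blue-light F-box genes were lower on both arrays, beside 43.3% of all genes, with a median of -0.30. ZTL, which targets TOC1 and PRR5 for breakdown, stood at -0.12 ± 0.022, FKF1 at -0.30 ± 0.19 and LKP2 at -0.33 ± 0.18. Their limma adjusted p values were 0.488, 0.208 and 0.182.

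The other regulators of the clock had a median of 0.024 over 16 genes. JMJ30, a histone demethylase gene expressed in the evening, stood at -0.81 ± 0.35 (limma adjusted p = 0.0809), from intensities of 1222.5 and 1196.9 in wild type, against 590.3 and 811.7 in 35S:NROB #2. COR27, a cold- and light-regulated repressor of clock genes, stood at -0.66 ± 0.45 (limma adjusted p = 0.123). TEJ, a poly(ADP-ribose) glycohydrolase that affects period length, stood at 0.51 ± 0.053 (limma adjusted p = 0.0855), and LWD1, a coactivator of CCA1, at 0.31 ± 0.025 (limma adjusted p = 0.157). Without the pairing of the channels, ELF4-L1, JMJ30 and COR27 were called, with limma adjusted p values of 0.0394, 0.00934 and 0.0456, where 17.4% of all genes were called.

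Photoreceptor and light-input genes numbered 9, with a median log2 ratio of -0.052 and a median size of 0.13, the lowest of the 6 lists. The phytochrome genes PHYE and PHYD stood at -0.41 ± 0.20 and 0.34 ± 0.15. COP1 and DET1, repressors of light signalling, stood at -0.25 and -0.16. For these 4 genes the adjusted p of limma lay between 0.135 and 0.377.

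**Figure D3:**
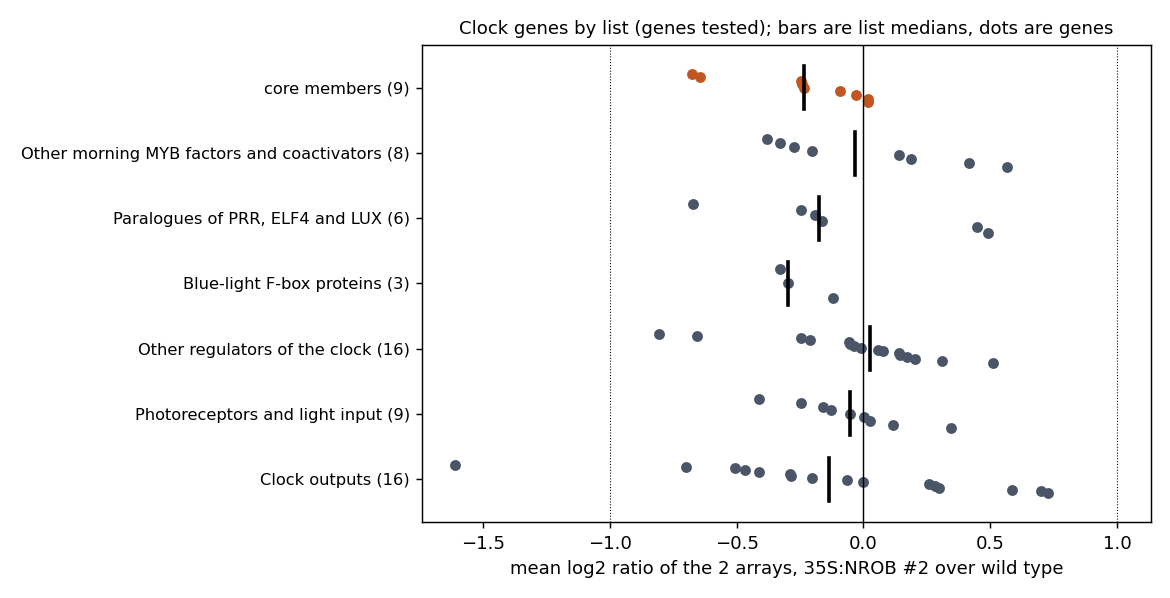
Mean log2 ratio of 35S:NROB #2 over wild type for each tested clock gene (dots), by list with the number of tested genes in brackets; black bars are list medians and dotted lines a 2-fold change. CBF3, among the outputs, is the gene past the 2-fold line, at -1.61.

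Clock outputs had a median log2 ratio of -0.13 over 16 tested genes, with -0.23 on array 1 and 0.11 on array 2. CBF3, whose expression is gated by the clock, had intensities of 6550.4 and 7429.1 in wild type, against 2920.7 and 1795.0 in 35S:NROB #2. Its mean log2 ratio was -1.61 ± 0.63 (limma adjusted p = 0.0655). After loess within each array it was -1.59, with a limma adjusted p of 0.0409. Under that setting 8.56% of all genes were called. The related genes CBF1 and CBF2 changed sign between the arrays. Their log2 ratios were -0.74 and -0.68 on array 1, against 0.155 and 0.27 on array 2. GRP8, an RNA-binding protein gene of the evening, stood at 0.73 ± 0.67 and CAT3, the evening catalase gene, at 0.70 ± 0.51. Both ratios rested mostly on array 2, where they were 1.20 and 1.06, against 0.25 and 0.34 on array 1. They are those of the brightest probe. With the kept probes of a gene averaged, CAT3, which had 9, stood at 0.355 (limma adjusted p = 0.288). GRP8, which had 2, stood at 0.77 (limma adjusted p = 0.183) in that setting. Without the pairing of the channels, limma called 4 of the 16 outputs, namely CBF3, CDF1, GRP8 and CAT3, beside 17.4% of all genes.

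The photoperiod branch downstream of the clock runs from GI and FKF1, which remove the CDF repressors, to CO and its target FT, the leaf-made flowering signal. CDF1, a repressor of CO, had intensities of 810.9 and 944.0 in wild type, against 565.0 and 513.6 in 35S:NROB #2, a mean log2 ratio of -0.70 ± 0.25 (limma adjusted p = 0.0797). CO and FT lacked a probe with the P flag on both arrays and stand outside the main test. They are named here after their values were seen. The brighter CO probe had 193.8 and 194.2 in wild type, against 68.8 and 64.3 in 35S:NROB #2. The brighter FT probe had 121.0 and 239.6 in wild type, against 50.8 and 36.7 in 35S:NROB #2. In both genes each transgenic value lay below each wild-type value, and both probes were flagged A on array 2. The transgenic intensities of array 2, from spots that were themselves flagged A, lay within the range of such spots. No fold is therefore given for CO and FT, and no test in the main setting. Their outcome under looser flag filters stands with the alternatives below.

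**Figure D4:**
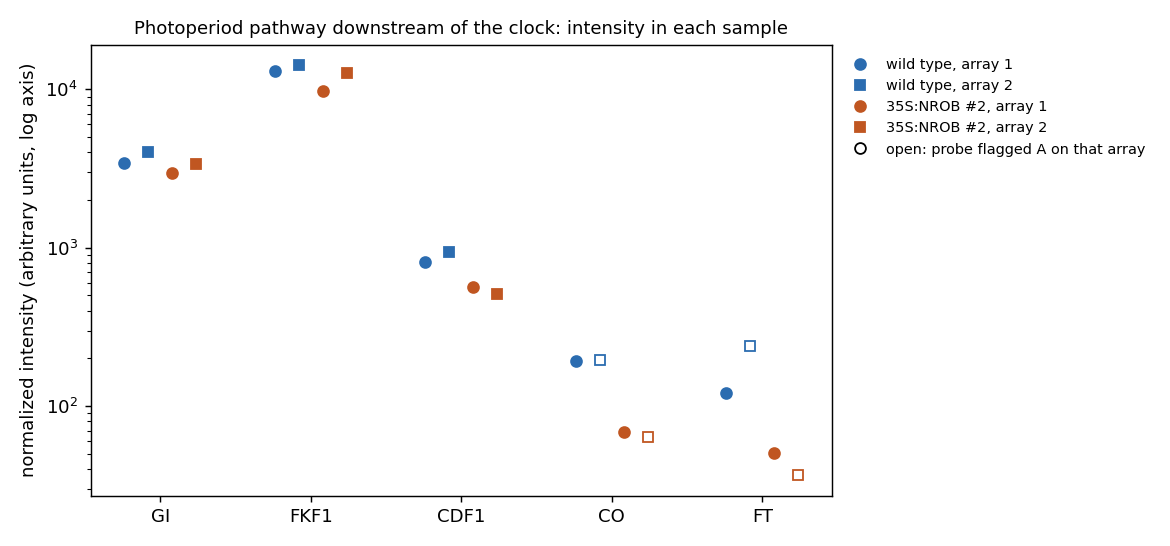
Normalized intensity (log axis) of GI, FKF1, CDF1, CO and FT in the 2 wild-type samples (blue) and the 2 samples of 35S:NROB #2 (orange), circles for array 1 and squares for array 2, with open symbols where the probe was flagged A. In GI, FKF1, CDF1, CO and FT alike, each transgenic value lies below each wild-type value. Of all tested genes, 53.3% show no overlap between the genotypes, in either direction.

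The same genotype was then compared between the arrays, since clock transcripts would differ if the replicates had been harvested at different hours. Each channel was centred on its median over the tested genes, and array 1 was subtracted from array 2. With 1 sample per genotype and array, these differences carry no test, and array, labelling and harvest cannot be told apart. No clock core gene was over 2-fold apart between the 2 wild-type samples (0 of 9, against 1.42% of all genes) or between the 2 samples of 35S:NROB #2 (0 of 9, against 0.891%). In wild type the differences ran from -0.16 for PRR5 to 0.31 for PRR9. The dawn gene CCA1 differed by 0.042. The evening genes TOC1, GI, ELF3, ELF4 and LUX differed by -0.11, 0.0505, -0.14, 0.11 and 0.016, and PRR5 is on the evening-phased list too. In 35S:NROB #2 they ran from -0.47 for PRR9 to 0.27 for PRR5, with CCA1 at -0.40. The median size was 0.11 in wild type and 0.19 in 35S:NROB #2, against 0.11 and 0.14 over all genes.

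**Figure D5:**
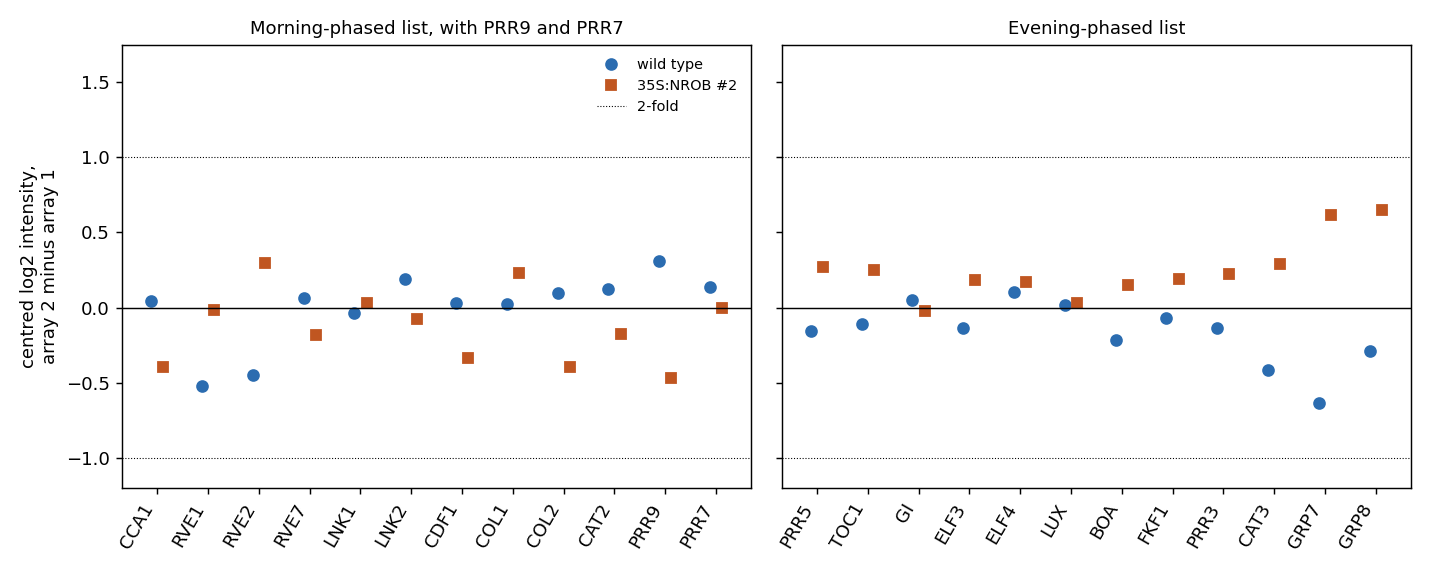
Difference of centred log2 intensity, array 2 minus array 1, within wild type (blue circles) and within 35S:NROB #2 (orange squares), for morning-phased genes with PRR9 and PRR7 (left) and evening-phased genes (right); dotted lines mark a 2-fold difference. All points lie within 2-fold, and in the evening-phased panel 9 of 12 genes are below 0 in wild type and 11 of 12 above 0 in 35S:NROB #2, against 4 and 12 of 12 without centring.

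With centring, the sign of the array difference was opposite in the 2 genotypes for 7 of the 9 clock core genes, with ELF4 and LUX as the exceptions, beside 59.8% of all genes. Without centring it was opposite for 2 of 9, CCA1 and PRR9, beside 26.9% of all genes, so the opposite signs of PRR7, PRR5, TOC1, GI and ELF3 depend on the scaling between arrays. In lists grouped by their known phase, the 12 evening-phased genes had a median difference of -0.14 in wild type and 0.21 in 35S:NROB #2 with centring, and of 0.049 and 0.40 without it, where the sign in wild type turned. Of these 12 genes, 3 were higher on array 2 in wild type, where 59.4% of all genes were higher, and 11 were higher on array 2 in 35S:NROB #2, against 52.7% of all genes. Without centring these counts were 8 of 12, against 87.4% of all genes, and 12 of 12, against 80.5%. The 10 morning-phased genes had medians of 0.037 in wild type and -0.13 in 35S:NROB #2, and of 0.22 and 0.071 without centring. At the ends of the evening list stood GRP7, an RNA-binding protein gene named after its values were seen, at -0.63 in wild type, and GRP8 at 0.65 in 35S:NROB #2. Green leaf markers also differed between the arrays in the transgenic samples, with a median of -0.33, against -0.019 in wild type. The part of harvest time in these shifts was not tested.

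The genes most like CCA1 and TOC1 were found by Euclidean distance over the 4 samples, with each channel centred on its median and each gene on its mean. Nearest to CCA1 were BXL2, DML1, AT3G20350, NUDX19 and DPE2, at distances between 0.027 and 0.048 on the log2 scale. Nearest to TOC1 were KING1, PrfB3, LSH6, AT2G29670 and COX15, at 0.020 to 0.031. With 4 samples such likeness is common: 599 genes lay within 0.2 of CCA1 and 2236 within 0.2 of TOC1.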

How the data were processed

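RNA of young leaves was hybridised to 2 two-colour Agilent arrays, and the submitters' processing notes name Agilent Feature Extraction 8.5.1.1. The main deposited table holds a normalized intensity for each channel, per the file headers, and a log2 ratio by the authors, wild type divided by 35S:NROB #2. That ratio equals the log2 of the channels within 9.62e-07. The series matrix holds the same ratio with the opposite sign, within 5e-06. Background correction, normalization and the rule behind the deposited flag letters (P, M or A) are not given in the sources used here. Over the tested genes the median intensity of array 1 was 1092.7 for wild type and 1087.0 for 35S:NROB #2, and that of array 2 was 1243.9 and 1245.9. The header of 1 channel of array 2 names both genotypes, and it was read as wild type because the authors' ratio is reached with it. The transgene itself was not checked.

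Probes were named by RefSeq accession, locus or symbol through a RefSeq gene table (TAIR10.1), which gave a locus to 36688 of 43603 gene probes. The 10 clock core genes had 17 probes, 13 of them flagged P on both arrays, and 2 were matched by symbol alone. Each gene took its brightest probe flagged P on both arrays. The log2 ratios, 35S:NROB #2 over wild type, were fitted with limma 3.58.1 in R 4.3.3 (intercept, lmFit and eBayes, 1 residual and 2.72 prior degrees of freedom), with Benjamini-Hochberg adjustment over all 16956 genes and calls under 0.05. The 2 channels of an array share that array and its replicate number, so the ratio keeps the pairing. The fit was tested on simulated data, in which few of the smallest changes, of 2-fold, were called, so a gene without a call may still have changed by this much. The 12 alternatives covered normalization, flags, dim genes, probes, an added intensity, the pairing, single arrays and the series matrix. All core genes are named, and of each other list the 4 genes with the largest mean log2 ratio in size, unless stated. Members and lists were chosen with earlier results of these data known. Genes entered a list where symbol and locus both matched, and 5 did not. Coordinates and sequences are not reported here.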

Additional observations from a re-analysis of the deposited data

How the results depend on the processing

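No clock core gene was called by limma under any alternative but 2: ELF4 without the replicate block (1 call), where 17.4% of all genes were called, and ELF4 and CCA1 at an adjusted p under 0.1 (2 calls), beside 20.1% of all genes. The limma adjusted p of ELF4 ranged from 0.0388 to 0.0887 and that of CCA1 from 0.0512 to 0.114, and CCA1 was not tested where the lower quartile of intensity was dropped. With array 1 or array 2 alone, PRR9 was 0.35 or -0.41, TOC1 -0.17 or 0.20, ELF3 -0.15 or 0.18 and ELF4-L3 -0.020 or 1.00. The causes of the moves given here were not tested.

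The count of all genes called by limma, 40 higher and 2 lower, became 463 and 150 with median centring, 933 and 519 with loess, 499 and 221 with quantile normalization, 24 and 1 with 1 P flag required, 1091 and 441 with all probes, 235 and 86 without the lower quartile, 462 and 148 with probes averaged per gene, 516 and 209 with 50 added, 1474 and 1469 with no replicate block, and 1706 and 1703 at an adjusted p under 0.1. The 2-fold counts, 818 higher and 482 lower, became 1674 and 1123 with all probes and 466 and 244 without the lower quartile. The lower count was 309 with 50 added and 217 to 1035 on single arrays.

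The median log2 ratio of the clock core was -0.16 with all probes. That of the morning MYB list was 0.14 with all probes and -0.20 without the lower quartile. That of the paralogues was -0.15 with median centring, -0.14 with loess, -0.18 with quantile normalization, -0.19 without the lower quartile, -0.17 with 50 added and -0.13 on either array alone. The other regulators gave 0.049 with median centring, 0.075 with loess, -0.0098 without the lower quartile, -0.017 with the mean of probes and 0.024 to 0.054 on single arrays. The photoreceptors gave -0.027 with median centring, -0.090 with quantile normalization, -0.13 with the mean of probes and -0.071 to -0.051 on single arrays. The outputs gave -0.23 to 0.11 on single arrays. Without the replicate block, limma called 1 paralogue, 2 other regulators and 4 outputs, and with loess 1 output (CBF3). With all probes it called 1 output, CO, whose probe was flagged A on array 2. With 1 P flag required, or with all probes, 3 outputs were past 2-fold, namely CBF3, CO and FT. The FT probe was flagged A on array 2 as well. Of all genes, 896 higher and 624 lower were past 2-fold with 1 P flag required.

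Between the wild-type samples, the genes over 2-fold apart (15 higher and 226 lower on array 2) became 95 and 355 with 1 P flag required, 510 and 634 with all probes and 4 and 127 without the lower quartile. The higher count was 4 with 50 added and 31 without centring. Between the 35S:NROB #2 samples (37 and 114) they became 121 and 291, 573 and 606, and 12 and 66 under the same changes of filter, 102 and 68 without centring, and 22 higher with 50 added. Without centring, the median difference of the morning-phased list was 0.22 in wild type and 0.071 in 35S:NROB #2, and that of the evening-phased list 0.049 and 0.40. Under the other alternatives for this comparison between 5 (of 7 tested) and 8 (of 9) clock core genes had opposite signs in the genotypes. The share of all genes under these alternatives is not given here, and in the main setting it was 59.8%.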

Other observations

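The CBF genes, cold-response factors whose daily expression is gated by the clock, differed between the arrays within a genotype. CBF2 was the listed clock gene over 2-fold apart in both genotypes, with a centred log2 difference, array 2 minus array 1, of -2.08 in wild type and -1.13 in 35S:NROB #2. Its intensities were 1145.5 and 308.2 in the wild-type samples and 714.0 and 372.9 in the transgenic samples. CBF1 differed by -1.59 and -0.71. CBF3 differed by -0.0054 in wild type and by -0.90 in 35S:NROB #2. These differences have 1 sample per genotype and array and no test. In wild type 2 of 67 listed clock genes were over 2-fold apart, beside 1.42% of all genes. In 35S:NROB #2 it was 1 of 67, beside 0.891% of all genes.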
